A study of Mus musculus with 11 samples.

Results

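P2 receptors are the cell-surface receptors for extracellular ATP and related nucleotides, and 10 of their genes were followed in sorted sensory neurons of tumour-bearing and sham mice. The genes were chosen by name as 6 P2X channels (P2rx2, P2rx3, P2rx4, P2rx5, P2rx6 and P2rx7) and 4 P2Y receptors (P2ry1, P2ry2, P2ry12 and P2ry14), out of 55401 genes listed. All 10 passed the low-count filter that left 16817 genes for testing. The RNA came from trigeminal ganglion neurons, which serve sensation in the face and mouth, of tumour-bearing mice or sham controls. MOC1 is a line of oral squamous cell carcinoma from mouse, and names the tumour arm. In every group the neurons had been labelled retrogradely with the dye DiI, taken from both ganglia and sorted for DiI fluorescence. The MOC1 arm has 3 libraries of females and 3 of males, and the sham arm 3 of females and 2 of males. Strain, age, time after tumour inoculation and the site of dye injection are not in the labels. Nor do they tie each library to its own animal, so p-values measure only the spread between these libraries.

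P2X receptors are trimeric cation channels that open when ATP binds, whereas P2Y receptors couple to G proteins and respond to ATP, ADP, UTP or UDP-sugars. Cells release ATP when they are damaged or stretched, and in sensory ganglia the homomeric P2X3 channel and its heteromer with P2X2 carry ATP-evoked currents of nociceptors. P2X7, which opens at high ATP, and the ADP receptor P2Y12 are known from the satellite glia that wrap sensory neuron bodies and from macrophages and microglia. Extracellular ATP is broken down stepwise by ectonucleotidases to adenosine, which acts on its own receptors.

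Gene counts per library ran between 10757426 and 16703797. Neuronal markers were high in every library, with the 16 pan-neuronal markers at 12935 to 14645 CPM (counts scaled to a fixed library total) in the MOC1 arm and 10177 to 12622 CPM in the sham arm. Of these, 8 were higher in MOC1 in edgeR and 11 in DESeq2. The libraries still held glial RNA, and its amount differed between the arms. The 12 satellite glia markers summed to 3014 to 5454 CPM in the MOC1 arm and 8378 to 10079 CPM in the sham arm. In edgeR 11 of these 12 markers were lower in the MOC1 arm and 1 did not pass, and DESeq2 called all 12. In the Schwann cell list 3 of 10 were lower in edgeR and 4 in DESeq2, and the list summed to 750.0 to 891 CPM in the MOC1 arm and 974 to 1256 CPM in the sham arm. None of the 14 macrophage markers passed in edgeR, with 1 lower at an unadjusted p under 0.05, and DESeq2 called none. In the fibroblast list 1 of 6 genes was lower in edgeR, and its sum of 59.8 to 71.8 CPM in the MOC1 arm did not overlap with 90.2 to 179 CPM in the sham arm. In the endothelial list 1 of 7 was lower in edgeR, where all 7 had an unadjusted p under 0.05, and DESeq2 called 0. Of 6 squamous and tumour markers, Krt5 and Krt6a were at 0 in every library, and Trp63 was at 0 in 3 of 11. Krt14 had counts in 1 MOC1 library and Dsg3 in 3 MOC1 libraries only. Epcam went the other way, at 0 in every MOC1 library and in 9 of 11 in all, with a sham mean of 0.43 CPM. Neither Dsg3 nor Epcam passed (edgeR adjusted p = 0.191 and 0.194). The list summed to at most 4.98 CPM in the MOC1 arm and 4.11 CPM in the sham arm. Below, CPM of single genes are after TMM, which scales libraries so that most genes stay level, and log2 fold changes are MOC1 over sham, where 0 is no difference. A call is an adjusted p (Benjamini-Hochberg over all genes tested) under 0.05. In all, 394 genes were higher and 719 lower in MOC1. Scaled instead to the pan-neuronal markers, 27 rose and 2002 fell, and scaled to the satellite glia markers 10212 rose and 43 fell, so the receptors were also compared under these scalings. MOC1 female 3 and MOC1 male 2 lay far out on the first and second principal components of log2 CPM, and sham female 1 held 1252 CPM of endothelial markers, where the others held at most 207 CPM.

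Among the 10 receptors, P2rx7 and P2ry12 were lower in the MOC1 arm and none was higher in the edgeR quasi-likelihood test, where 2 were higher at an unadjusted p under 0.05. DESeq2 called 1 higher, P2rx3, and 2 lower. The edgeR test called 4.28% of all genes lower and 2.34% higher. Over all 16817 genes, 3104 had an unadjusted p under 0.05 in edgeR, in either direction. DESeq2 called 613 of them higher and 892 lower. P2rx7 and P2ry12 were also the only 2 of 10 receptors whose CPM ranges did not overlap between the arms, both lower in MOC1, where 4.18% of tested genes were lower without overlap and 2.15% higher. The median log2 fold change of the 10 receptors was 0.01, against -0.03 over all genes tested. P2rx3, the most abundant of the receptors, stood at 1.19 times its sham level in the MOC1 arm and did not pass (edgeR adjusted p = 0.06).

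P2rx7 (ENSMUSG00000029468.17) lies on the plus strand at chr5:122643911-122691432 (GRCm38), where the microRNA gene Mir8115 lies inside it on the same strand. P2ry12 (ENSMUSG00000036353.13) lies on the minus strand at chr3:59216272-59262871, within Med12l on the opposite strand. The upstream sequences of these 2 genes are shown because both were lower in the same comparison. They are the bases before the annotated start in RefSeq (GRCm38.p6), which holds 7 of the 10 receptors in the table used here, with capitals marking the letters ACAAAG or ACAATG on either strand (CTTTGT is ACAAAG read on the other strand), core sequences bound by SOX factors such as SOX10 of glia. P2rx7 is read from chr5:122643677-122643910 on the plus strand, before the more upstream of its 2 listed starts, and P2ry12 from chr3:59262986-59263235 on the minus strand.
P2rx7: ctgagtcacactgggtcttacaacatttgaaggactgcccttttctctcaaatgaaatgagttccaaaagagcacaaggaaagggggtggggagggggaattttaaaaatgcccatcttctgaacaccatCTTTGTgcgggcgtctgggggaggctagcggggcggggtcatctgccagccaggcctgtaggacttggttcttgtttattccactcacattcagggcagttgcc
P2ry12: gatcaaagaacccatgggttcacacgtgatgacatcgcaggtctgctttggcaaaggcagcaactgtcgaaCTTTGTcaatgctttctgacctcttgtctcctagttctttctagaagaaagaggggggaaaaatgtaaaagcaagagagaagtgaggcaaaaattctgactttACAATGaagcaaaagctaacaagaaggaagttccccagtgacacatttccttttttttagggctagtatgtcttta
Matches were counted over the 250 bases before the RefSeq start, of which 234 are printed for P2rx7 because the rest lie within the gene as the files place it. The P2rx7 window held 1 such match and the P2ry12 window 2, and 25% of all promoter windows of 250 bases hold at least 1. All motifs were searched on both strands. The AP-1 motif TGANTCA, found in 6.73% of windows, occurred once upstream of P2rx7 and was not found upstream of P2ry12. The letters GAGGAA, a core of the macrophage factor PU.1, were found in neither window and in 23.4% of all windows. These matches describe letters only.

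Levels per kilobase of exon ordered the receptors, so that genes of different length could be set side by side. The length joins all annotated exons of a gene, including those of retained-intron transcripts, and part of the order rests on it. It was 7.03 kb for P2rx4, 5.97 kb for P2rx7 and 2.55 kb for P2ry12. Before division by length, P2rx4 (28.2 CPM) and P2rx7 (21.5 CPM) stood above P2ry12 (18.2 CPM) in the sham arm. In the sham arm P2rx3 led with 108 ± 5.26 CPM per kb (SD, n = 5). P2ry1, a Gq-coupled ADP receptor, followed at 17.7 ± 4.43 and P2ry12 at 7.14 ± 1.68 CPM per kb. The ranges of these 3 did not overlap with each other or with the next. P2rx4 (4.02 ± 0.35), P2rx7 (3.60 ± 0.64) and P2ry2 (3.36 ± 0.45 CPM per kb) overlapped with their neighbours in this order. So did P2ry2 with P2rx5 (1.71 ± 0.99), P2rx5 with P2rx2 (1.63 ± 1.95) and P2rx2 with P2rx6 (0.98 ± 0.42 CPM per kb). P2ry14, a receptor for UDP-glucose, stood last at 0.046 ± 0.033 CPM per kb. In MOC1 libraries P2rx3 stood at 128 ± 12.2 and P2ry1 at 18.2 ± 5.26 CPM per kb (SD, n = 6). P2ry12 there stood at 3.16 ± 1.03 CPM per kb, below P2rx4 at 3.99 ± 0.67 CPM per kb.

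**Figure D1:**
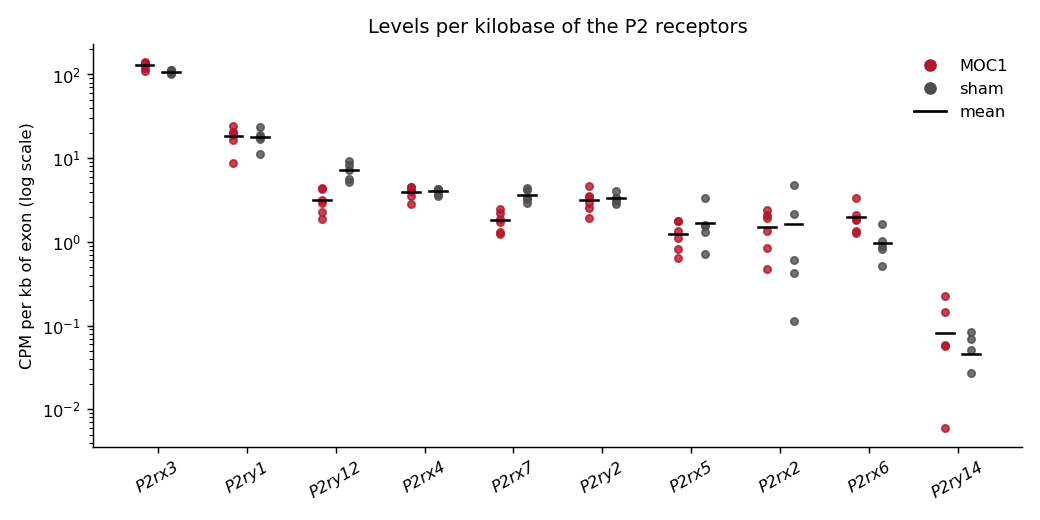
Levels of the 10 receptors as CPM per kilobase of exon on a log scale, with 1 point per library, MOC1 left of sham, and bars at the mean; libraries at 0 are not drawn (1 of each arm for P2ry14). P2rx3 stands above the others in both arms, at a mean of 128 in the MOC1 arm and 108 CPM per kb in the sham arm.

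P2rx7 encodes the ATP-gated channel that can open a large pore and drive release of interleukin-1. It had 10.2, 11.1 and 7.87 CPM in MOC1 females and 14.9, 7.49 and 13.4 CPM in MOC1 males, against 17.3, 24.7 and 26.3 CPM in sham females and 19.3 and 19.7 CPM in sham males. Every MOC1 library lay below every sham library. The means were 10.8 ± 2.94 CPM in the MOC1 arm (SD, n = 6) and 21.5 ± 3.83 CPM in the sham arm (SD, n = 5). The MOC1 level was 0.50 times the sham level (log2 fold change -0.999 ± 0.23 SE, edgeR adjusted p = 0.0119). The call held without each of the 11 libraries in turn, with adjusted p between 0.00996 and 0.0383.

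P2ry12 encodes the Gi-coupled ADP receptor that is the target of antiplatelet drugs and marks resting microglia. It had 10.9, 4.79 and 7.43 CPM in MOC1 females and 7.98, 11.4 and 5.87 CPM in MOC1 males, against 13.4, 23.3 and 14.4 CPM in sham females and 18.5 and 21.2 CPM in sham males. The arms again did not overlap, and the sexes did not separate within either arm. The mean was 8.05 ± 2.63 CPM in the MOC1 arm (SD, n = 6) and 18.2 ± 4.29 CPM in the sham arm (SD, n = 5), a MOC1 level 0.438 times that of sham (log2 fold change -1.19 ± 0.27 SE, edgeR adjusted p = 0.00945). Without each library in turn the adjusted p lay between 0.00612 and 0.0435.

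**Figure D2:**
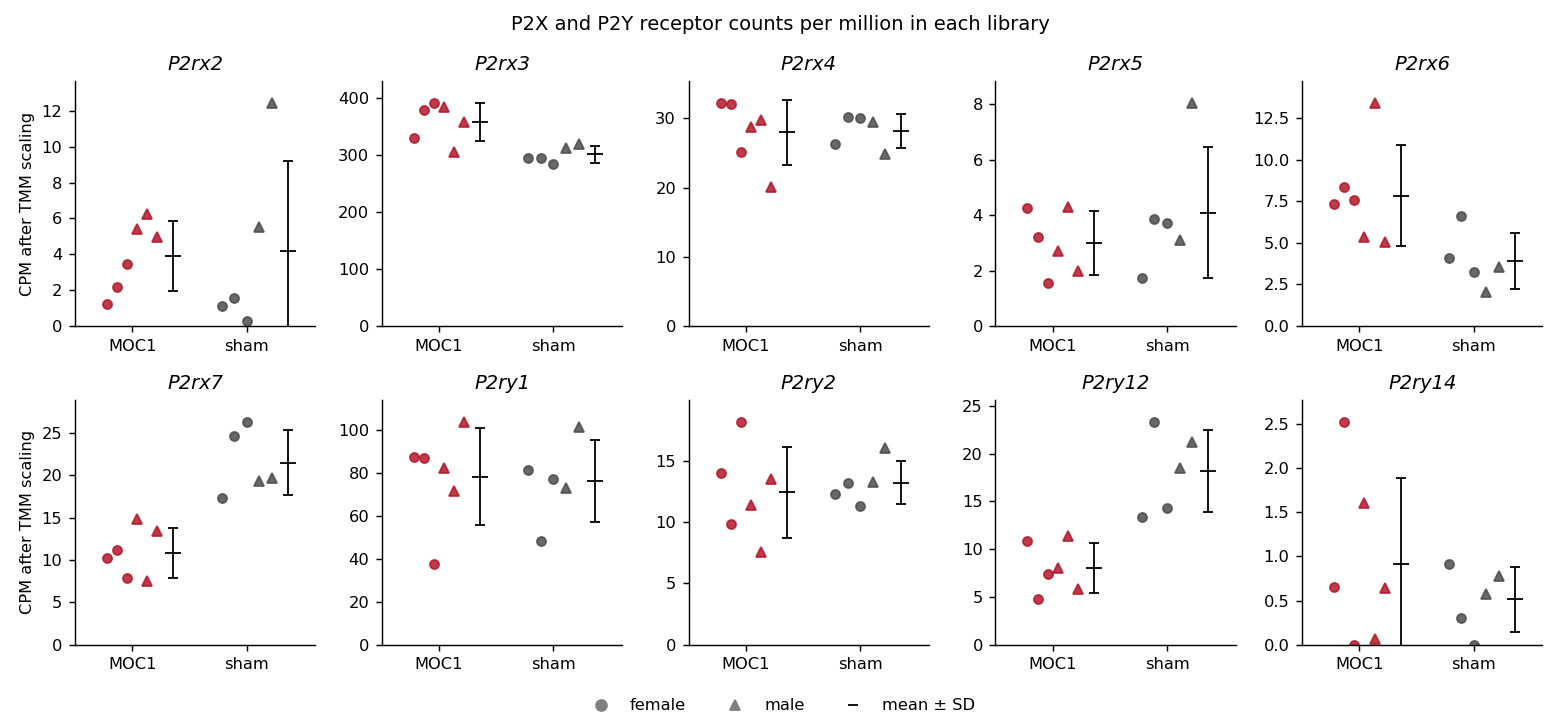
CPM after TMM scaling of each receptor in every library (circles female, triangles male), MOC1 left of sham, with the mean and SD beside the points; SD bars are cut at 0. P2rx7 and P2ry12 are the 2 panels in which all MOC1 points (7.49 to 14.9 and 4.79 to 11.4 CPM) lie below all sham points (17.3 to 26.3 and 13.4 to 23.3 CPM).

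Both receptors and the satellite glia markers were lower in the MOC1 arm. Fewer glial cells and less of these transcripts per cell cannot be told apart in sorted bulk samples. Per 1000 counts in the satellite glia list, P2rx7 had 2.64 ± 0.85 counts in the MOC1 arm (SD, n = 6) and 2.35 ± 0.40 in the sham arm (SD, n = 5), a log2 difference of 0.12 (two-sided exact permutation test, adjusted p = 0.781). For P2ry12 there were 1.90 ± 0.47 counts in the MOC1 arm and 1.97 ± 0.35 in the sham arm, a log2 difference of -0.08 (exact permutation test, adjusted p = 0.781). Per 1000 counts in the pan-neuronal list, P2rx7 had 0.78 ± 0.24 counts in the MOC1 arm and 1.84 ± 0.27 in the sham arm (log2 difference -1.29, adjusted p = 0.013, exact permutation test). P2ry12 had 0.58 ± 0.19 such counts in the MOC1 arm and 1.56 ± 0.36 in the sham arm (log2 difference -1.48, adjusted p = 0.013, exact permutation test). On pan-neuronal scaling both receptors were called lower (log2 fold change -1.26 for P2rx7 and -1.46 for P2ry12), and on satellite glia scaling neither passed (0.16 for P2rx7 and -0.06 for P2ry12). A ratio within a library does not depend on how libraries are scaled. The p-values are adjusted over 6 ratios, chosen after the fold changes were known, and the smallest p the 462 regroupings allow is 0.00216. Without MOC1 female 3, MOC1 male 2 and sham female 1 together, both ratios to the pan-neuronal list kept their direction (-1.08 for P2rx7 and -1.66 for P2ry12). Each stood at the smallest p those 8 libraries allow, 0.0286 in the exact permutation test, so the adjusted p of 0.0857 says nothing about stability.

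Within the MOC1 arm, the 2 libraries richest in satellite glia markers were female 1 (5454 CPM) and male 2 (4958 CPM). These also had the most P2ry12 of that arm, 10.9 and 11.4 CPM. The rest of the arm did not follow the marker order throughout. Female 3, lowest in the markers (3014 CPM), had 7.43 CPM of P2ry12. Male 1 (4090 CPM of markers) had 7.98, female 2 (3957) had 4.79 and male 3 (3750.5) had 5.87 CPM. P2rx7 was not highest in the 2 richest libraries, since it stood at 10.2 CPM in female 1 and at its lowest, 7.49 CPM, in male 2. The sham libraries ran from female 1 (8378 CPM of markers) through female 3 (8871), male 3 (9308) and male 1 (9363) to female 2 (10079). In that order P2ry12 had 13.4, 14.4, 21.2, 18.5 and 23.3 CPM, and P2rx7 had 17.3, 26.3, 19.7, 19.3 and 24.7 CPM. Whether either receptor follows the markers within an arm was not tested. With the satellite glia share as a covariate, which does not overlap between the arms, P2rx7 had a log2 fold change of -0.97 ± 0.74 SE and P2ry12 of 0.07 ± 0.68 SE. Neither passed in that fit, in which no gene did, with 1213 genes at an unadjusted p under 0.05.

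**Figure D3:**
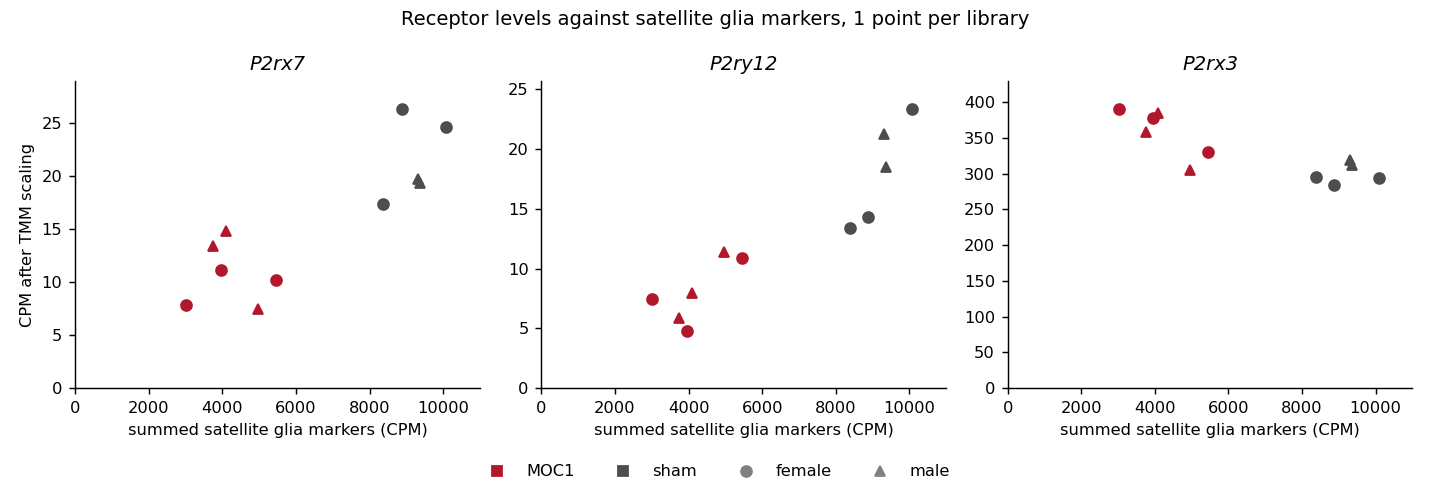
Receptor CPM after TMM scaling against the summed CPM of the 12 satellite glia markers, 1 point per library, red for MOC1 and grey for sham, circles female and triangles male. P2rx7 and P2ry12 are lower in the MOC1 arm, where the markers sum to 3014 to 5454 CPM, than in the sham arm. Within the MOC1 arm P2rx7 is lowest (7.49 CPM) in male 2, which holds 4958 CPM of markers. P2rx3 lies between 305 and 390.3 CPM in the MOC1 arm and between 283 and 319 CPM in the sham arm.

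Cx3cr1, Tmem119 and Tyrobp, markers of macrophages and microglia, the other cells known for both receptors, averaged under 1 CPM in both arms. The chemokine receptor gene Cx3cr1 had 0.53 ± 0.66 CPM in the MOC1 arm (SD, n = 6) and 0.49 ± 0.51 CPM in the sham arm (SD, n = 5), with 0 in 4 of 11 libraries. Tmem119, a microglial marker, was at 0 in 8 of 11 libraries, and Tyrobp in 9 of 11. P2ry13, the neighbour of P2ry12 and another ADP receptor of myeloid cells, had 0.29 ± 0.43 CPM in the MOC1 arm and 0.31 ± 0.43 CPM in the sham arm. Of 6 T cell markers, Cd3e, Cd3g and Cd8a were at 0 in every library and Trac was at 0 in 3 of 11, and the list summed to at most 2.66 CPM in the MOC1 arm and 2.17 CPM in the sham arm.

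P2rx3 encodes the channel subunit of nonpeptidergic nociceptors that antagonists developed against chronic cough block. The gene (ENSMUSG00000027071.14) lies at chr2:84998583-85037462 on the minus strand. It had 330.1, 378 and 390.3 CPM in MOC1 females and 384, 305 and 358 CPM in MOC1 males, against 295, 294 and 283 CPM in sham females and 313 and 319 CPM in sham males. All MOC1 libraries except male 2 lay above every sham library. The means were 358 ± 33.9 CPM in the MOC1 arm (SD, n = 6) and 301 ± 14.7 CPM in the sham arm (SD, n = 5), with a log2 fold change of 0.25 ± 0.08 SE that did not pass in edgeR (adjusted p = 0.06). It passed with DESeq2 (0.25, adjusted p = 0.0158), with no sex term (adjusted p = 0.0495), with no low-count filter (adjusted p = 0.0396), with 1 CPM in 5 libraries (adjusted p = 0.0484) and without MOC1 male 2 (0.30, adjusted p = 0.0134). On pan-neuronal scaling the log2 fold change was -0.03 ± 0.09 SE. Per 1000 counts in that list, P2rx3 had 25.6 ± 2.74 counts in the MOC1 arm and 26.0 ± 2.23 in the sham arm (exact permutation test, adjusted p = 0.781).

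Set against its own class of neuron, P2rx3 was slightly higher. Per 1000 counts in the 8 nonpeptidergic neuron markers, such as the receptor Mrgprd and the GDNF-family receptor Gfra2, there were 81.8 ± 3.84 P2rx3 counts in the MOC1 arm (SD, n = 6) and 75.3 ± 3.61 in the sham arm (SD, n = 5). The log2 difference was 0.12 (adjusted p = 0.039, two-sided exact permutation test). The difference kept its direction without each library in turn, at 0.10 to 0.15, but its adjusted p lay above the threshold without any 1 of 8 of the 11 libraries (adjusted p up to 0.105, exact permutation test). Of those 8 markers none passed in edgeR or DESeq2, with 4 higher at an unadjusted p under 0.05, and their summed level was 4349 ± 461 CPM in the MOC1 arm and 4029 ± 232 CPM in the sham arm.

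P2rx2, the partner of P2rx3 in the heteromeric channel, was weakly expressed, and its ranges were apart between males and females but not between MOC1 and sham. It had 5.40, 6.24 and 4.98 CPM in MOC1 males and 5.53 and 12.4 CPM in sham males. In females it had 1.21, 2.20 and 3.46 CPM in the MOC1 arm and 1.1, 1.56 and 0.30 CPM in the sham arm. Every male library lay above every female library, for this 1 of 10 receptors, where 0.434% of tested genes separated the sexes without overlap in either direction. Males had 4.40-fold more than females (log2 fold change 2.14 ± 0.58 SE, unadjusted p = 0.00171 in edgeR), and this did not pass the adjustment over all genes (adjusted p = 0.90). Only 7 genes, 0.0416% of those tested, passed for sex. P2rx2 was looked at by sex after its values had been seen, and its counts were low, at 5 to 47 per female library and 78 to 209 per male library. Between MOC1 and sham the log2 fold change was 0.30 ± 0.57 SE (95% interval -0.90 to 1.5), which did not pass.

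The tumour difference of each receptor was also compared between the sexes. In the interaction of sex and tumour no gene passed in edgeR (0% of 16817), with 708 genes at an unadjusted p under 0.05, and DESeq2 also called 0. P2rx2 had the smallest p of the 10, with a log2 fold change 1.91 ± 1.09 SE higher in females than in males (unadjusted p = 0.0968 in edgeR). Its mean was 2.29 CPM in MOC1 females and 0.99 CPM in sham females, and 5.54 CPM in MOC1 males and 8.98 CPM in sham males.

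P2rx6, a subunit that forms channels mainly with other P2X subunits, had the largest positive fold change of the 10 but did not pass. It had 7.33, 8.39 and 7.58 CPM in MOC1 females and 5.34, 13.4 and 5.04 CPM in MOC1 males, against 4.10, 6.62 and 3.25 CPM in sham females and 2.04 and 3.57 CPM in sham males. The ranges overlapped through sham female 2. The log2 fold change was 1.07 ± 0.41 SE (edgeR adjusted p = 0.153), at 32 to 204 counts per library.

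The remaining X-type receptors showed no difference that passed. P2rx4, a channel widespread in neurons and immune cells, averaged 28.0 ± 4.68 CPM in the MOC1 arm and 28.2 ± 2.44 CPM in the sham arm (log2 fold change 0.00 ± 0.16 SE, 95% interval -0.33 to 0.33). P2rx4 lies 16111 bases beyond the end of P2rx7 on the same strand of chromosome 5. P2rx5 averaged 2.99 ± 1.14 CPM in the MOC1 arm and 4.09 ± 2.36 CPM in the sham arm, with a log2 fold change of -0.43 ± 0.54 SE (95% interval -1.57 to 0.70).

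Among the P2Y receptors that did not pass, P2ry1 averaged 78.1 ± 22.6 CPM in the MOC1 arm and 76.0 ± 19.0 CPM in the sham arm (log2 fold change 0.01 ± 0.19 SE, 95% interval -0.39 to 0.41). P2ry2, the Gq-coupled receptor for ATP and UTP, averaged 12.4 ± 3.69 CPM in the MOC1 arm and 13.2 ± 1.76 CPM in the sham arm (log2 fold change -0.09 ± 0.25 SE, 95% interval -0.61 to 0.43). P2ry14 had 0 to 38 counts in the MOC1 arm and 0 to 15 counts in the sham arm, with 0 in 2 of 11 libraries, and a log2 fold change of 0.83 ± 1.47 SE. P2ry14 and P2ry12 lie 62653 bases apart on chromosome 3, both on the strand opposite to Med12l, which spans them, and the counts are strand-specific.

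**Figure D4:**
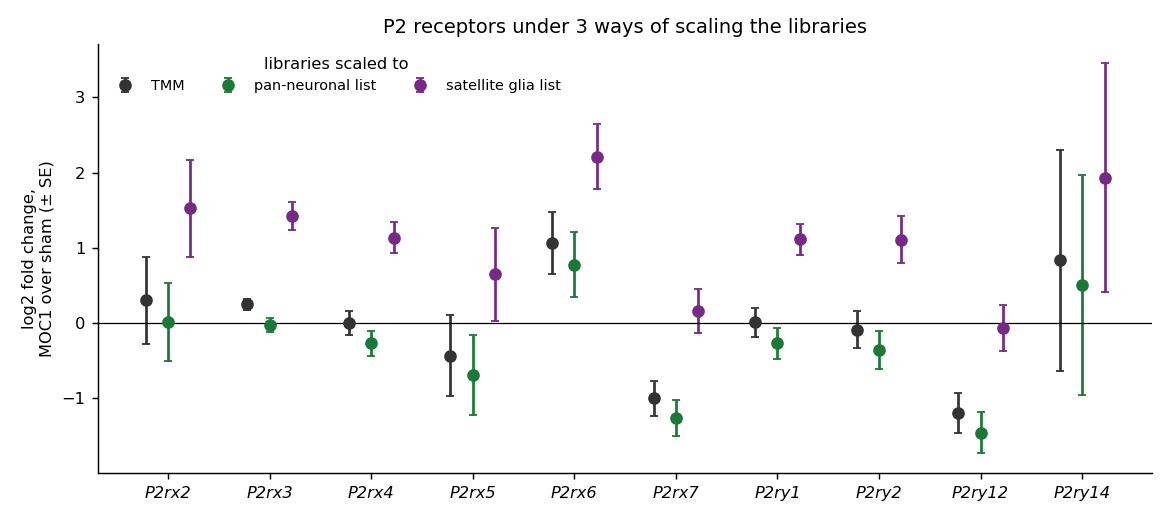
Log2 fold change of each receptor, MOC1 over sham, with its SE, with libraries scaled by TMM, to the pan-neuronal list and to the satellite glia list. P2rx7 and P2ry12 lie between -1.46 and -0.999 under the first 2 scalings and at 0.16 and -0.06 under the third, and P2rx3 lies at 0.25, -0.03 and 1.43.

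The genes whose levels ran most like those of the 2 receptors that fell were sought among 10957 genes with a mean of at least 5 CPM. Likeness was the root-mean-square difference between log2 CPM profiles, each centred on its mean over the 11 libraries. These profiles hold the arm difference by which the 2 receptors were called, so genes lower in MOC1 come near by construction. The nearest to P2rx7 was Ivd, an enzyme of leucine breakdown, at 0.19 log2 units, followed by Kif9, Nck2, Lrig1 and Taf1d at up to 0.24, where the median gene stood at 0.64. The nearest to P2ry12 was Fkbp10, a collagen chaperone, at 0.21 log2 units, followed by Slc27a1, Ppp1r14c, Pbxip1 and the Notch ligand Jag1 at up to 0.25, with a median gene at 0.77. Jag1 had 38.9 CPM in the MOC1 arm and 97.0 CPM in the sham arm. Of these neighbours, Kif9 and Nck2 did not pass (edgeR adjusted p = 0.064 and 0.17), and the others were called lower.

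In the rest of the purinergic pathway, 46 genes were listed and 36 passed the filter. Of these 3 were higher, 6 lower and 27 did not pass in edgeR, with a median log2 fold change of 0.05, where 2.34% of all genes tested were higher and 4.28% lower. The count of higher genes was 4 with DESeq2, with no low-count filter and without MOC1 male 2. The other P2 receptors were at or near 0. P2rx1, P2ry4 and P2ry10 were at 0 in all 11 libraries, P2ry6 had 1 count in 1 library, and P2ry10b had counts in 2 libraries.

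Among the 9 ectonucleotidases, 1 rose and 3 fell in edgeR, and DESeq2 called 2 higher and 3 lower. Nt5e (CD73), which makes adenosine from AMP, was higher, with 126 ± 17.6 CPM in the MOC1 arm (SD, n = 6) and 88.0 ± 14.3 CPM in the sham arm (SD, n = 5; log2 fold change 0.50 ± 0.11 SE, edgeR adjusted p = 0.0063). Acpp, another AMP-hydrolysing enzyme and an abundant marker of nonpeptidergic neurons, stood at 907 ± 141 CPM in the MOC1 arm and 724 ± 90.8 CPM in the sham arm and did not pass (log2 0.32 ± 0.10 SE, edgeR adjusted p = 0.062). Entpd1 (CD39), which removes phosphates from ATP and ADP, was lower, at 18.3 ± 7.11 CPM in the MOC1 arm and 45.4 ± 21.7 CPM in the sham arm (log2 -1.31 ± 0.30 SE, edgeR adjusted p = 0.0108). Entpd1 is also an endothelial gene, and without sham female 1, the library with high endothelial markers, its log2 fold change was -0.99 (edgeR adjusted p = 0.0237). Enpp1, which cleaves ATP to AMP and pyrophosphate, and the alkaline phosphatase Alpl fell too, each to 0.409 times the sham level (log2 -1.29 ± 0.22 SE for Enpp1 and -1.29 ± 0.23 SE for Alpl, edgeR adjusted p = 0.00105 and 0.00128). Entpd3, a neuronal ATP-hydrolysing enzyme, stood at 134 ± 9.06 CPM in the MOC1 arm and 124 ± 4.81 CPM in the sham arm, and Entpd2, known from satellite glia, at 10.9 ± 4.41 CPM in the MOC1 arm and 14.5 ± 3.66 CPM in the sham arm. Neither passed. In the list 4 genes did not pass in edgeR and 1 was not tested.

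Adk, the kinase that clears adenosine inside cells, was the 1 gene of 8 in the adenosine list that passed, at 266 ± 22.3 CPM in the MOC1 arm and 203 ± 29.4 CPM in the sham arm (log2 0.39 ± 0.09 SE, edgeR adjusted p = 0.0157). The inhibitory adenosine receptor Adora1 averaged 162 ± 28.0 CPM in the MOC1 arm and 144 ± 13.4 CPM in the sham arm and did not pass, nor did the transporter Slc29a1 (32.3 ± 5.72 CPM in MOC1, 27.2 ± 5.55 CPM in the sham arm) or Slc29a2.

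Of 7 genes of ATP storage and release, Gja1 was the 1 that passed. Gja1 encodes connexin 43, the gap junction protein of satellite glia, and fell to 39.7 ± 10.6 CPM in MOC1, against 102 ± 15 CPM in the sham arm (log2 -1.38 ± 0.16 SE, edgeR adjusted p = 2.19e-05). The pannexin channel Panx2 did not overlap between the arms, at 60.7 ± 6.19 CPM in the MOC1 arm and 49.0 ± 3.59 CPM in the sham arm, but did not pass (log2 0.32 ± 0.11 SE, edgeR adjusted p = 0.089). Panx1 averaged 84.4 ± 9.87 CPM in the MOC1 arm and 74.1 ± 7.18 CPM in the sham arm, and Lrrc8a did not pass either. The vesicular nucleotide transporter Slc17a9 had counts in 3 of 11 libraries.

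Of 10 G proteins and effectors of P2Y receptors, Gnaq rose and Plcb4 and Itpr3 fell. Gnaq, the alpha subunit through which P2Y1 and P2Y2 signal, stood at 772 ± 89.3 CPM in the MOC1 arm and 607 ± 50.7 CPM in the sham arm (log2 0.34 ± 0.08 SE, edgeR adjusted p = 0.0123). The phospholipase gene Plcb4 fell to 50.7 ± 9.06 CPM in MOC1, against 71.9 ± 8.27 CPM in the sham arm (log2 -0.52 ± 0.13 SE, edgeR adjusted p = 0.0188), a call lost without MOC1 female 2, sham female 2 or sham male 3 (edgeR adjusted p between 0.0562 and 0.0688). Itpr3, an intracellular calcium release channel, fell to 81.0 ± 22.3 CPM in MOC1, against 165 ± 26.2 CPM in the sham arm (log2 -1.01 ± 0.16 SE, edgeR adjusted p = 0.000361). Plcb3, another phospholipase, averaged 768 ± 102 CPM in the MOC1 arm and 774 ± 69.6 CPM in the sham arm, and Gnai2 did not pass. Gnai3 averaged 113 ± 17.2 CPM in the MOC1 arm and 133 ± 14.2 CPM in the sham arm (log2 -0.24 ± 0.11 SE, edgeR adjusted p = 0.246).

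None of the 6 inflammasome genes that P2X7 can engage passed in edgeR, with 1, Il18, lower at an unadjusted p under 0.05, and DESeq2 called none. Casp1 averaged 10.6 ± 5.15 CPM in the MOC1 arm and 9.85 ± 2.45 CPM in the sham arm, Il18 averaged 4.29 ± 1.33 CPM in the MOC1 arm and 9.05 ± 4.25 CPM in the sham arm, and Nlrp3, Pycard, Il1b and Gsdmd stood under 1.5 CPM on average in both arms. The genes higher in MOC1, Nt5e, Adk and Gnaq, did not pass when libraries were scaled to the pan-neuronal list (log2 0.22, 0.12 and 0.06). With satellite glia scaling Gja1, Entpd1, Alpl and Enpp1 no longer passed (log2 -0.27, -0.23, -0.17 and -0.21), and Itpr3 and Plcb4 turned to 0.10 and 0.61. With the glial share as a covariate none of the 9 called pathway genes passed, with log2 fold changes between -0.29 and 0.58.

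**Figure D5:**
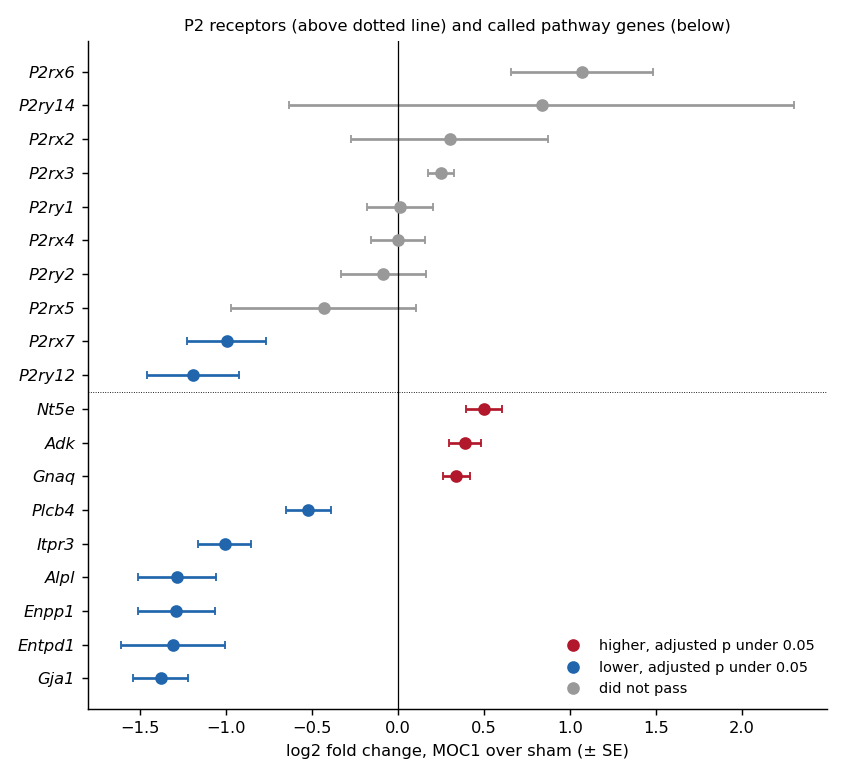
Log2 fold change, MOC1 over sham, with its SE, for the 10 receptors above the dotted line and the 9 other purinergic genes that passed below it; blue points are lower, red points higher and grey points did not pass. P2rx7 and P2ry12 lie at -0.999 and -1.19, beside Itpr3 at -1.01, and 3 pathway genes lie between 0.34 and 0.50.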

How the data were processed

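The deposited files gave, for each library, the authors' read counts per gene, raw and strand-specific, per the file headers. Trimming used Trimmomatic 0.35 and alignment STAR 2.7.1a on GRCm38, per the submitters' processing notes; which annotation was used is not given. Rows that name no gene (4 per file, 18.7% to 21.5% of a library) entered neither library sizes nor tests.

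R 4.3.3 and edgeR 4.0.16 were used for a quasi-likelihood F test of MOC1 over sham with an additive sex term, on 16817 genes left by filterByExpr over the 4 groups, with TMM scaling and Benjamini-Hochberg adjustment over all of them (threshold 0.05). A fit over the 4 groups gave the interaction. An SE is the absolute log2 fold change divided by the root of F. CPM are given after TMM, and marker sums are CPM without it. Exon lengths come from GENCODE M21, in which 55141 identifiers were found. The code was tested on simulated data. No libraries of a group agreed within sampling noise (chi-square per degree of freedom 13.3 to 39.6).

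Members, lists and comparisons were chosen with earlier results of these data known. All members are named, with every called pathway gene, up to 3 more per list by mean CPM, and the 5 nearest profiles of each called member; other genes were named after their values were seen. Alternatives were DESeq2 1.42.0 and its size factors, 3 other scalings, other low-count filters, no sex term, a glial covariate, a replicate block, and leaving out libraries. Ratios to marker lists and the comparison of P2rx2 by sex were added after the values had been seen. The summed level of the macrophage list is not reported here.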

Additional observations from a re-analysis of the deposited data

Results flagged for a closer look

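P2ry1 in MOC1 female 3 stood at 37.3 CPM, where the other 5 MOC1 libraries had 71.2 to 104 CPM. Its gap to the nearest library was 0.633 of the range of that arm on the log2 scale, past the limit for 6 samples. This was 1 of 20 groups looked at, and chance flags about 1 in 20. The same library lay farthest out on the first principal component and had the fewest genes detected, 14180. Their part in the low value was not tested.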

How the results depend on the processing

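P2rx7 and P2ry12 were called lower without each library in turn and under every setting run except satellite glia scaling and the glial covariate, where none of the 10 receptors was lower. Satellite glia scaling gave log2 fold changes of 0.16 for P2rx7, 0.65 for P2rx5, 1.11 for P2ry2, 0.10 for Itpr3 and 0.61 for Plcb4, called 6 receptors and 20 pathway genes higher and 0 pathway genes lower, with 10212 genes higher and 43 lower in all and 2 in the interaction. It shifted the median of all genes to 1.12, against -0.30 on pan-neuronal scaling. Pan-neuronal scaling gave -0.025 for P2rx3, -0.27 for P2rx4 and -0.27 for P2ry1, with 0 pathway genes higher, and 27 genes higher and 2002 lower in all. With the glial covariate 0 genes were called in either direction, among them 0 receptors and 0 pathway genes, and the log2 fold changes were 0.068 for P2ry12, -0.15 for P2rx3, -1.22 for P2rx2, 1.68 for P2rx5, -0.010 for Nt5e, -0.034 for Adk, 0.16 for Itpr3, 0.22 for Plcb4 and 0.58 for Enpp1. The cause of these changes was not tested.

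P2rx3 was the 1 receptor called higher with DESeq2, no low-count filter, 1 CPM in 5 libraries, no sex term, the replicate block and without 3 libraries together. DESeq2 called 613 genes higher and 892 lower. With no filter 563 were higher, 1010 lower and 53 in the interaction. Total-count scaling gave -0.021 for P2rx4 and -0.010 for P2ry1, and no sex term -0.012 for P2rx4 and -0.094 for P2rx2. Without the 3 libraries P2rx2 stood at -0.024 and P2rx4 at -0.028, 5 genes passed in the interaction, and the log2 ratios to the pan-neuronal list were -1.08 for P2rx7, -1.66 for P2ry12 and 0.042 for P2rx3, with 0.12 for P2rx3 to the nonpeptidergic list.

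Without each library in turn, 250 to 427 genes were higher, 250 without MOC1 female 2 and 258 without sham male 3, 0 to 1 receptor was higher and 0 to 2 genes passed in the interaction. Log2 fold changes ran from -0.018 to 0.76 for P2rx2, -0.034 to 0.069 for P2rx4, -0.092 to 0.16 for P2ry1, -0.24 to 0.028 for P2ry2 and -0.062 to 1.34 for P2ry14. Log2 ratios ran from -0.15 to 0.054 for P2ry12 to the glial list, -0.072 to 0.018 for P2rx3 to the pan-neuronal list and 0.10 to 0.15 for P2rx3 to the nonpeptidergic list.

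Libraries of the same sex and number did not deviate together (correlations -0.036 to 0.044 over 5 pairs). With so few libraries per group, this cannot exclude that the numbers pair them. The replicate block called 324 genes higher and 712 lower, and gave 0.29 for P2rx3 (edgeR adjusted p = 0.037), 4 pathway genes higher and -0.047 for P2rx4. P2rx2, P2rx5, P2rx6, P2ry12 and P2ry14 had under 100 counts in at least 1 library, and how depth bears on them was not tested.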
